A study of Homo sapiens with 20 samples.

Results

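CpG-poor coding promoters with RNA polymerase II (POL2) were described in PC-3, a human prostate cancer cell line of epithelial origin. The annotation was GENCODE release 44 on GRCh38, and each of its 19970 protein-coding genes on chromosomes 1 to 22 and X was taken at its annotated 5′ end. The observed/expected CpG ratio was computed from 500 bp on either side of that end, and 5237 genes had a ratio below 0.35. Of these CpG-poor promoters, 261 had a POL2 summit within 1 kb in at least 2 of the 6 POL2 libraries, and these 261 are the members described here. The other 14733 genes, with a ratio of 0.35 or more, are called CpG-rich, and 8375 of them had POL2 by the same rule. Chromatin immunoprecipitation with sequencing (ChIP-seq) had been done with an antibody to POL2 and another to the transcription factor MYC, in wild-type cells (WT) and in cells that the labels call PSD10 or SLK-KO, in which SLK, a kinase of the STE20 family, was knocked out. Each antibody and genotype had 3 replicates, which makes 6 POL2 and 6 MYC libraries. Neither the number of knockout clones nor the SLK level of the cells is given in the sources used here, so the genotype labels could not be checked, and a clone and the knockout cannot be told apart.

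Each library was a list of summits, the 1-bp peak centres called in that library alone, and no reads were counted. POL2 lists held 17126, 5047 and 9925 summits in WT replicates 1 to 3 and 19017, 15436 and 16298 in SLK-KO replicates 1 to 3. MYC lists held 365, 201 and 267 summits in WT and 1218, 1420 and 988 in SLK-KO. The SLK-KO lists were the longer ones for MYC, while for POL2 the list of WT replicate 1 was longer than those of SLK-KO replicates 2 and 3. Read depth is unknown, and unequal length is addressed below only by cutting all lists to the length of the shortest. Of the epithelial markers, KRT8, KRT18 and KRT19 had POL2 in 6 of 6 libraries and CDH1 in 1, and EPCAM had it in 3 SLK-KO and 0 WT libraries. KRT8 and KRT18 share the same summits, so they are not separate markers here. None of 6 leukocyte, 2 hepatocyte or 2 muscle markers had a POL2 summit in any library.

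Most human promoters lie in CpG islands, stretches that escape the methylation and loss of CpG seen over the rest of the genome. Promoters outside islands more often belong to genes restricted to a tissue or switched on by a signal, and more of them carry a TATA box, which fixes the start of transcription a short way downstream. POL2 commonly pauses just downstream of the start, and its ChIP signal is then highest there. MYC binds DNA with its partner MAX, prefers the E-box CACGTG, and is found mainly at open, CpG-rich promoters.

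To show what CpG-poor means at the level of sequence, the 120 bases upstream of the 5′ end are printed for 8 members, 5′ to 3′ on the strand of the gene, with each CpG in capitals. TPM4 (an actin-binding tropomyosin), EMP1 (an epithelial membrane protein), ANXA1 (annexin A1, a calcium-dependent phospholipid-binding protein) and SRGN (serglycin, a proteoglycan core protein) were among the best-ranked members. DNAJC12 (a co-chaperone of the J-domain family) and BCL2A1 (an anti-apoptotic relative of BCL2) had POL2 in SLK-KO libraries only, RNF223 (a RING finger gene) had it in WT libraries only, and BCL9 (a co-activator of beta-catenin) had MYC summits. CCN1, which encodes a secreted matrix protein, is the best-ranked CpG-rich promoter with no start of another gene within 1 kb and is printed for contrast.
TPM4, chr19:16066901-16067020 (+): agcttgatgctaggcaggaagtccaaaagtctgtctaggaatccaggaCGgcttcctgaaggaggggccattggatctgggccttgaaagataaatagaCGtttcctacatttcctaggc
EMP1, chr12:13196603-13196722 (+): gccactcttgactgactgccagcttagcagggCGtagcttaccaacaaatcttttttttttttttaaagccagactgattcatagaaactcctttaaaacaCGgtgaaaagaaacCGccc
ANXA1, chr9:73151745-73151864 (+): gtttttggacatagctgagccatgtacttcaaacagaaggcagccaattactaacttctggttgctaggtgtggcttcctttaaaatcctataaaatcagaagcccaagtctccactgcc
SRGN, chr10:69087983-69088102 (+): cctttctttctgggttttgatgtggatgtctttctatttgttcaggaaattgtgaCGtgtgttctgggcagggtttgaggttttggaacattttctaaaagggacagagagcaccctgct
DNAJC12, chr10:67838189-67838308 (-): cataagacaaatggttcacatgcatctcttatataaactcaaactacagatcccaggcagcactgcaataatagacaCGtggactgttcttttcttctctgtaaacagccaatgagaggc
BCL2A1, chr15:79971197-79971316 (-): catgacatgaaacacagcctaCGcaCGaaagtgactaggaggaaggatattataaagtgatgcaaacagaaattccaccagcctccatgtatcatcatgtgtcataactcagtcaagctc
RNF223, chr1:1074307-1074426 (-): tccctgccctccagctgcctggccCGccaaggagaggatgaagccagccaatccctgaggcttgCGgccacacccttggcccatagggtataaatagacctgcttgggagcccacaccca
BCL9, chr1:147541381-147541500 (+): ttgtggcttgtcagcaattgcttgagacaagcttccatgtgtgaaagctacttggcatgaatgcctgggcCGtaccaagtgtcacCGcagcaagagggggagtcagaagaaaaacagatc
CCN1, chr1:85580641-85580760 (+): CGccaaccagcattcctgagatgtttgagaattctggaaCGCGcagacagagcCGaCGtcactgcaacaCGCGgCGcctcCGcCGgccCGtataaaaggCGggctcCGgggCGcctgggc
The 8 CpG-poor stretches held between 0 CpG (ANXA1) and 3 (EMP1), and the stretch of CCN1 held 14.

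POL2 was found at a far smaller share of CpG-poor than of CpG-rich promoters. The 261 members are 4.98% of the 5237 CpG-poor promoters (Wilson 95% interval 4.43 to 5.61, counting error only), against 56.8% of CpG-rich promoters (56.0 to 57.6) and 43.2% of all coding promoters. Per library, the share of CpG-poor promoters with a summit was 4.05%, 1.13% and 2.50% in WT and 4.79%, 4.03% and 4.30% in SLK-KO. The share of CpG-rich promoters was 54.0%, 21.4% and 40.4% in WT and 55.4%, 51.3% and 53.8% in SLK-KO. The CpG-poor share was thus the lower of the pair in 6 of 6 libraries, with a mean difference of -42.6 percentage points (-50.6 to -20.3). An exact two-sided sign-flip permutation test over the 6 libraries gave p = 0.031, the smallest that 64 flips allow, and 0.0703 after Benjamini-Hochberg adjustment over 9 tests. The smallest possible p was 0.031 for classes and 0.1 for genotypes. No result could therefore pass 0.05 after adjustment in this design, whatever its size. That test speaks of repeatability over libraries of 1 cell line, not over genes.

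The share rose from bin to bin up to a ratio of 1 and showed no step at 0.35. It was 1.02% of 488 genes with a ratio under 0.1, 2.76% from 0.1 to 0.2, 6.24% from 0.2 to 0.3 and 10.5% from 0.3 to 0.35. Just above the threshold, from 0.35 to 0.4, it was 11.96% of 535 genes, it reached 68.7% from 0.9 to 1, and it was 67.5% of the 311 genes at 1 or more. The members nearest below the threshold were DBN1 (drebrin, an actin-binding protein, ratio 0.3485), ZNF491 (0.348) and ATP2B4 (a plasma membrane calcium pump, 0.348), with POL2 in 4, 5 and 4 libraries. The genes nearest above it with POL2 were OBSL1 (0.3504, with INHA starting 451 bp away), SET (0.3515) and PALMD (0.3517), with POL2 in 2, 2 and 4 libraries.

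**Figure D1:**
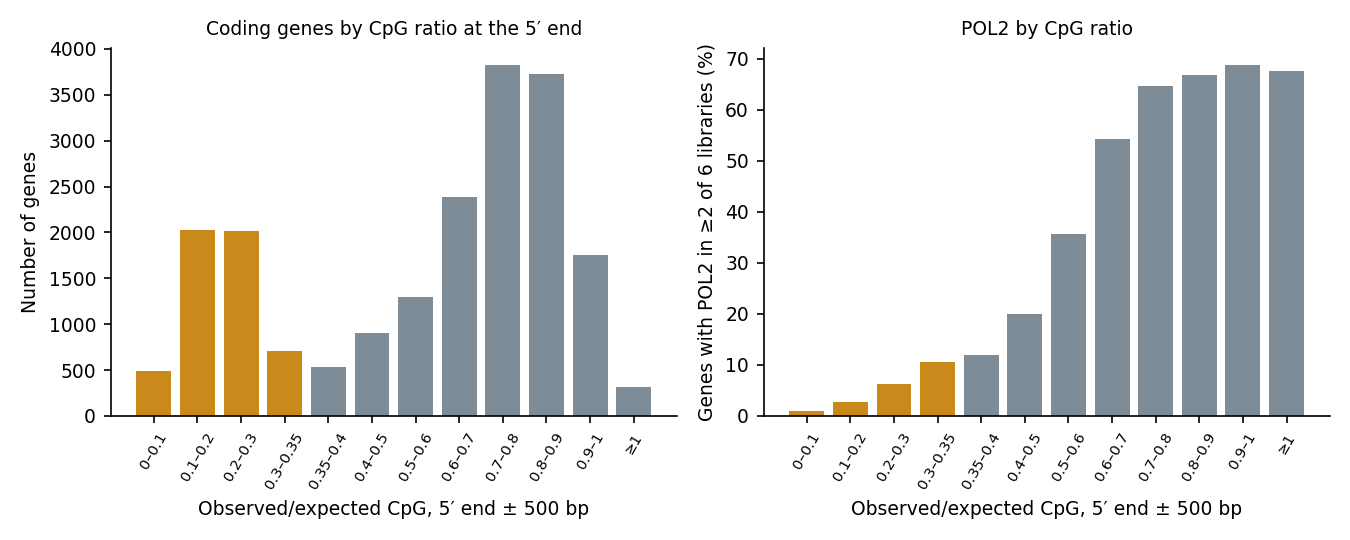
Number of coding genes (left) and percentage with POL2 in at least 2 of 6 libraries (right), by observed/expected CpG ratio of the 1-kb stretch around the 5′ end. Orange bars are CpG-poor (below 0.35) and grey bars CpG-rich. The POL2 percentage rises from 1.02% in the lowest bin to 68.7% from 0.9 to 1.

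Of the members, 43 of 261 (16.5%) had a summit in all 6 libraries, against 2923 of 8375 CpG-rich promoters with POL2 (34.9%). Another 93 CpG-poor promoters had a summit in 1 library only and are not members.

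The 12 best-ranked members were placed by the authors' score, used only to rank summits within each library, as a percentile of the list in which 0 is the best. By the median over 6 libraries they included TM4SF1, TPM4, EMP1, S100A1, ANXA1, SRGN, RHOA, CAPN2, IL18, DEPP1 and KRT8, and each had POL2 in 6 of 6 libraries. TM4SF1, a surface protein of tumour and endothelial cells, ranked 90, 124 and 98 in the WT lists and 172, 156 and 137 in the SLK-KO lists, a median percentile of 0.95. That placed it near the head of every list, with the summit 68 to 108 bp downstream of the 5′ end. An antisense long non-coding RNA, TM4SF1-AS1, starts 86 bp away, and the lists carry no strand to tell the 2 apart. TPM4 ranked 400, 621 and 942 in WT and 215, 349 and 187 in SLK-KO. ANXA1 ranked 616, 731 and 482 in WT and 219, 264 and 398 in SLK-KO. SRGN ranked 1601, 1251 and 678 in WT and 299, 289 and 339 in SLK-KO. IL18, a cytokine of the interleukin-1 family, ranked 1301, 523 and 1983 in WT and 736, 657 and 629 in SLK-KO. Its ranks overlapped between genotypes. Its percentiles were 7.60, 10.4 and 19.98 in WT and 3.87, 4.26 and 3.86 in SLK-KO, and the same rank gives a higher percentile in a shorter list.

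EMP1 ranked 389, 513 and 428 in WT and 263, 500 and 376 in SLK-KO, and the genotypes overlapped. DEPP1, a regulator of autophagy, ranked 339, 1218 and 419 in WT and 1565, 1037 and 972 in SLK-KO, with overlap. S100A1, a calcium-binding protein, ranked between 350 and 496 in all 6 lists, but its summit lay at -450.5 bp, upstream of the end, and S100A13 has a start 254 bp from the S100A1 end. Since lists differ in length, these ranks describe single libraries and carry no test of genotype. How many members have every rank of a genotype ahead of the other was not counted.

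The annotated 5′ end was often not the place where POL2 was highest. KRT8, a keratin of simple epithelia, has an annotated end with a ratio of 0.200, yet its POL2 summits lay 767 to 800 bp downstream, where the ratio was 0.672. KRT18 has a start 149 bp from that end and shares the summits. The KRT8 start in RefSeq, another gene catalogue, lies 23485 bp from that end, so these summits may not belong to KRT8. RHOA (a small GTPase of the cytoskeleton) and TPM4 had summits 756 and 551 bp downstream at ratios of 0.901 and 0.528, and each has a CpG-rich start of its own. TCTA also has a start 575 bp from the RHOA end. At ANXA1, SRGN, DEPP1, IL18 and EMP1 the summit lay 31, 36.5, 33, 72 and 100 bp downstream, and the ratio around it was between 0.0350 and 0.329. Over all 261 members, 186 had a summit that was itself in CpG-poor sequence, at a median of 123.5 bp from the 5′ end. The other 75 (28.7%) had a summit in CpG-rich sequence, at a median of 798 bp, and 67 of these lay downstream. Both ratios use 500 bp on either side, so a summit near the 5′ end shares most of the stretch that made it CpG-poor. The difference in distance between the 186 and the 75 is thus in large part built in. Of those 75, 66 had another start of the same gene that was CpG-rich, 23 had a CpG-rich start of another gene within 1 kb, and 7 had neither. The label of a CpG-poor promoter thus held for the POL2 site itself at 186 of 261 members.

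The distance from the 5′ end also differed between CpG-poor and CpG-rich promoters. The median distance of the nearest summit was 285, 474 and 412 bp in WT and 261, 286 and 249 bp in SLK-KO at CpG-poor promoters, against 124 to 132 bp at CpG-rich ones. The class difference averaged 199 bp and had one direction in 6 of 6 libraries (exact sign-flip permutation p = 0.031, adjusted 0.0703). It was -1.33 bp when each gene was taken at any of its annotated starts, and -4.58 bp without the CpG-poor genes that have a CpG-rich start of their own. The first 200 bp downstream held 32.1% to 37.3% of CpG-poor promoters' summits and 48.6% to 50.9% of CpG-rich promoters'. More than 500 bp downstream, the shares were 25.5% to 35.6% and 7.80% to 8.47%. Summits lay downstream in 74.0% of CpG-poor and 71.1% of CpG-rich promoters on average, a difference of 2.90 points seen in 5 of 6 libraries (exact sign-flip permutation p = 0.0625, adjusted 0.1125). That difference was -2.09 points without genes that have a start of another gene within 1 kb.

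**Figure D2:**
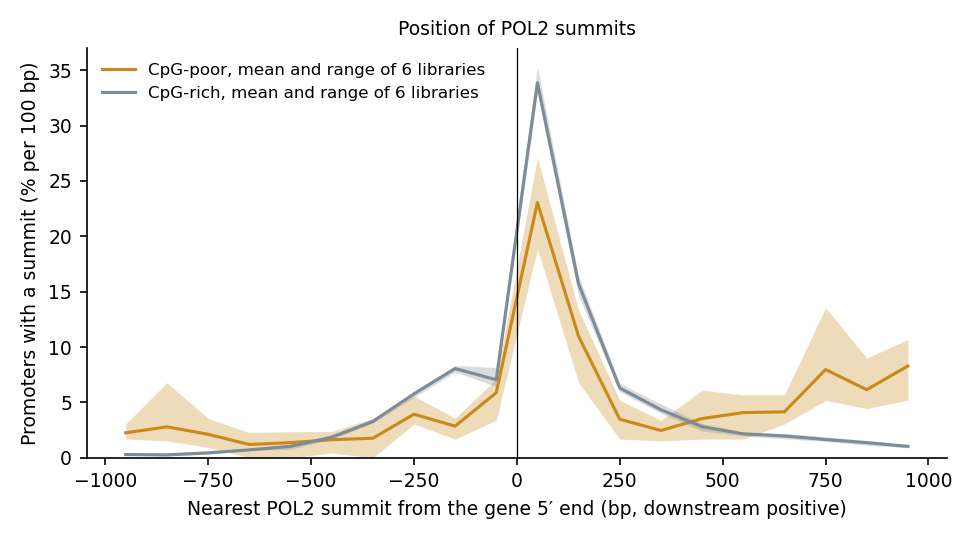
Position of the nearest POL2 summit relative to the gene 5′ end (bp, downstream positive), as the percentage of promoters with a summit per 100 bp. Lines are means and bands are ranges over 6 libraries for CpG-poor (orange) and CpG-rich (grey) promoters. CpG-poor promoters have a lower peak just downstream and a second group of summits more than 500 bp downstream, with 25.5% to 35.6% of summits against 7.80% to 8.47%.

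CpG-poor promoters ranked lower than CpG-rich ones in each full list, but not in each list of equal length. The median percentile of promoters with a summit was 45.5, 45.7 and 46.8 in WT and 44.4, 51.2 and 45.6 in SLK-KO for CpG-poor ones. It was 28.3, 40.0 and 36.9 in WT and 26.9, 30.5 and 30.1 in SLK-KO for CpG-rich ones. The mean difference was 14.4 percentile points (5.70 to 20.7), higher in 6 of 6 libraries (exact sign-flip permutation p = 0.031, adjusted 0.0703). It was 1.73 points when every list was cut to its best 5047 summits, and 2.82 at any annotated start. At equal length the CpG-poor median was the higher in the 3 WT libraries (50.9, 45.7 and 57.7 against 48.4, 40.0 and 47.7) and the lower in the 3 SLK-KO libraries (44.9, 47.1 and 44.9 against 48.3, 48.4 and 48.1). Between the genotypes, the percentile of CpG-poor promoters differed by 1.08 points (WT 46.0 ± 0.71, SLK-KO 47.0 ± 3.6, SD of 3 libraries; exact permutation p = 0.9). That difference changed sign under 5 alternatives, among them lists of equal length (-5.75).

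Short sequence motifs were counted from 250 bp upstream to 50 bp downstream on both strands, or, for TATAAA, on the strand of the gene from 40 to 15 bp upstream. TATAAA, the core of the TATA box, stood at 9 of 261 members (3.45%), at 7.004% of CpG-poor promoters without POL2 in any library, at 1.23% of CpG-rich promoters with POL2 and at 3.03% of all coding promoters. Among the 9 were ANXA1, DEPP1, MUC1, SELENBP1, C5orf46, RNF223, TFF2 and BGLAP. The first 4 of these are printed as 40 bases that end 6 bp upstream of the 5′ end, with the match in capitals.
ANXA1, chr9:73151820-73151859 (+): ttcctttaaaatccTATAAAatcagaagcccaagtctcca
DEPP1, chr10:44978815-44978854 (-): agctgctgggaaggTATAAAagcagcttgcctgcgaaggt
MUC1, chr1:155192922-155192961 (-): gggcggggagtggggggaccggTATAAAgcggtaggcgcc
SELENBP1, chr1:151372713-151372752 (-): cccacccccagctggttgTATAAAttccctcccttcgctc
In ANXA1 and DEPP1 the match began 31 bp upstream, and POL2 summits lay at a median of 31 and 33 bp downstream. In MUC1, a membrane mucin of epithelia, the match began 23 bp upstream, but the POL2 summit lay at -854 bp, upstream of the same end.

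TGANTCA, which AP-1 dimers of FOS and JUN proteins bind, stood at 42 of 261 members (16.1%), at 12.8% of CpG-poor promoters without POL2, at 3.90% of CpG-rich promoters with POL2 and at 6.41% of all. Of the 43 members with POL2 in 6 libraries, 12 held it (27.9%, Wilson 95% interval 16.7 to 42.7, counting error only), among them EMP1, CAPN2 and KRT8. KRT8 was searched at its annotated end, 23485 bp from its RefSeq start. CACGTG stood at 3.83% of members, 4.51% of CpG-poor promoters without POL2, 9.89% of CpG-rich promoters with POL2 and 8.36% of all. At RefSeq starts, TGANTCA stood at 14.1% of 184 members, 11.0% of CpG-poor promoters without POL2 and 3.72% of CpG-rich promoters with POL2. Of members with POL2 in 6 libraries and a RefSeq start, 7 of 33 held TGANTCA there (21.2%, Wilson 95% interval 10.7 to 37.8).

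Gene families differed widely in how many of their CpG-poor promoters had POL2, beside 4.98% over all CpG-poor promoters. Among structural proteins of epithelia, 6 of 44 CpG-poor keratin genes were members: KRT8, KRT7, KRT15, KRT80, KRT86 and KRT75. None of 40 cornified envelope genes, 17 desmosomal and tight junction genes or 12 kallikreins was a member, and of 86 keratin-associated protein genes 1 was (KRTAP10-5). KRT7 ranked 1843 and 2046 in WT replicates 1 and 3 and 3193, 5239 and 6010 in SLK-KO, and had no summit in WT replicate 2. Its summit lay 761 bp downstream, in CpG-rich sequence, as at KRT8, whereas that of KRT15 lay 487 bp downstream at a ratio of 0.132.

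Among calcium-binding proteins, 4 of 17 S100 genes (S100A1, S100A16, S100A11 and S100A14) and 1 of 6 annexins (ANXA1) were members. Of 14 CpG-poor collagen and laminin genes, which encode basement membrane and matrix chains, 5 were members: LAMB3, COL5A2, LAMB2, LAMA4 and COL20A1. COL5A2 ranked 2161, 1511 and 5573 in WT and 3089, 5284 and 3739 in SLK-KO, with overlap. None of 12 CpG-poor matrix metalloproteinases was a member.

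Among secreted signals, 3 of 65 CpG-poor chemokine and interleukin genes were members: IL18, IL1B and CXCL8. IL1B, a pro-inflammatory cytokine, ranked 2261, 2304 and 3079 in WT and 933, 734 and 1439 in SLK-KO. As percentiles these were 13.2, 45.7 and 31.0 in WT and 4.91, 4.76 and 8.83 in SLK-KO, where shorter lists give higher percentiles to the same rank. CXCL8, a chemokine for neutrophils, had a summit in WT replicate 1 and in the 3 SLK-KO libraries. Among transporters, 5 of 107 CpG-poor solute carriers were members, and SLC7A11, the cystine/glutamate exchanger, ranked 2717, 2186 and 2540 in WT and 1427, 2753 and 3548 in SLK-KO. Of 397 CpG-poor olfactory receptor genes and 36 cytochrome P450 genes, 0 were members. TAS1R1, a taste receptor gene with POL2 in 6 libraries, had its summit at -815.5 bp, and NOL9 has a start 794 bp from the TAS1R1 end. Genes in no listed family contributed 214 members, 5.10% of 4193.

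Interferon-induced genes held the largest share among the families listed: 11 of 24 CpG-poor ones (45.8%) were members, and 5 of 11 CpG-rich ones had POL2. These genes encode antiviral effectors that are switched on through STAT and IRF proteins. Members were OAS2, IFI6, IFIT1, IFIT3, IFIT2, OASL, GBP3, IFI35, IFI44, GBP1 and IFI44L. By library, 8, 3 and 3 of the 24 had a summit in WT and 12, 9 and 10 in SLK-KO, without overlap. Over all CpG-poor promoters the shares were 4.05%, 1.13% and 2.50% in WT and 4.79%, 4.03% and 4.30% in SLK-KO, which overlap. Of the 11 CpG-rich genes of the family, 4, 2 and 4 had a summit in WT and 5, 5 and 4 in SLK-KO. Every list was then cut to its best 5047 summits. Counts among the 24 were then 2, 3 and 2 in WT and 4, 3 and 2 in SLK-KO, which overlap. OAS2, which makes the activator of RNase L, ranked 2954, 3525 and 2117 in WT and 2009, 1175 and 2141 in SLK-KO. IFI6, an interferon-induced membrane protein, ranked 3687, 4693 and 5073 in WT and 2071, 2170 and 1958 in SLK-KO. IFIT1, which binds foreign RNA caps, ranked 7002 in WT replicate 1, had no summit in the other two WT libraries, and ranked 4600, 2084 and 5655 in SLK-KO. IFIT2 had the same pattern, with a rank of 11024 in WT and 6758, 6885 and 6393 in SLK-KO. IFIT3 ranked 6890, 3772 and 4642 in WT and 5764, 7268 and 6343 in SLK-KO. No test was made of this family, which was described beside the others after earlier results of these data were known.

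The interferon-stimulated response element was searched as a pair of GAAA words with 2 bases between them, on both strands in the same 300-bp stretch, a motif chosen after the family counts were seen. It stood at 5 of the 11 members of the family (IFI6, IFIT1, IFI44, GBP3 and GBP1), 1 of the 13 that were not members (IFI27, which lies in a stretch with at least 10 CpG-rich 5′ ends and no POL2 summit in any library), 11 of the 250 other members (4.40%), 5.79% of all CpG-poor promoters and 3.47% of all coding promoters. The 3 members with the match upstream of the 5′ end are printed as 30 bases with 1 match each in capitals. It began 73, 26 and 25 bp upstream, on the opposite strand in IFIT1 and IFI44.
IFI6, chr1:27672266-27672295 (-): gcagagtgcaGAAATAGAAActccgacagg
IFIT1, chr10:89392510-89392539 (+): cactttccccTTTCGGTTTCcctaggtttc
IFI44, chr1:78649761-78649790 (+): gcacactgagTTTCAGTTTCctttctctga
POL2 summits of the 3 genes lay 54.5, 147 and 65 bp downstream of the 5′ end.

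**Figure D3:**
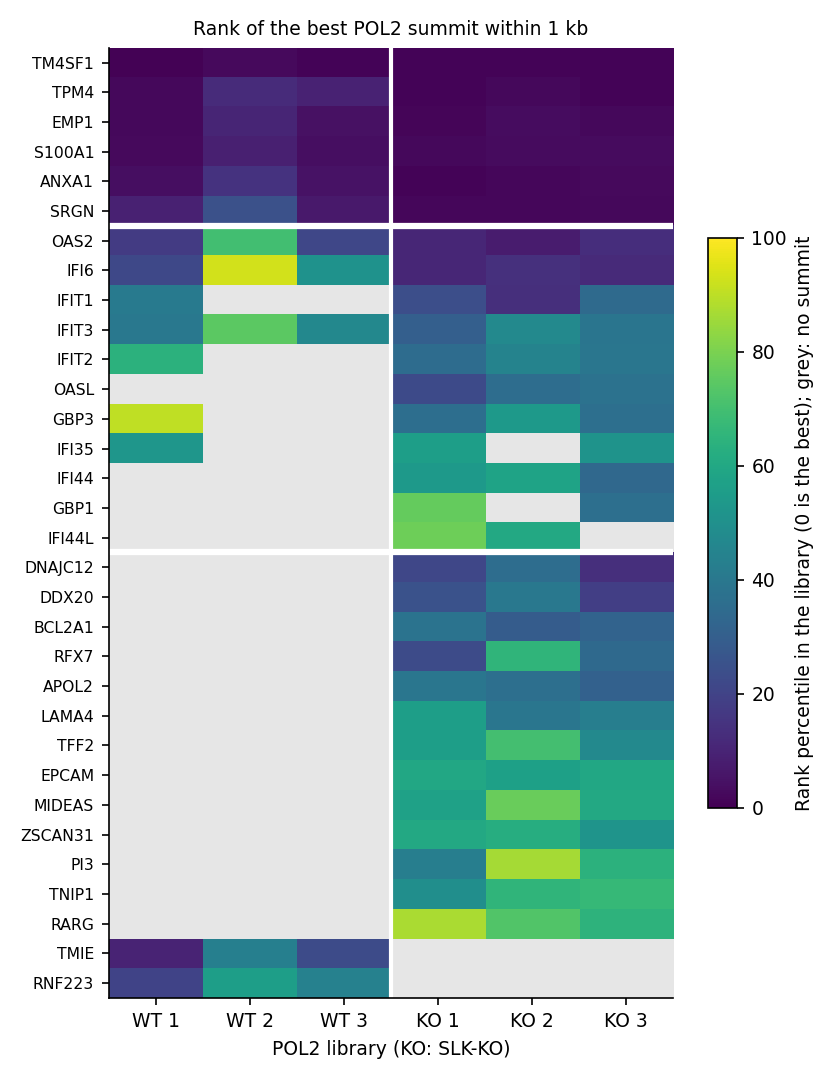
Rank percentile of the best POL2 summit within 1 kb (colour, 0 is the best, grey for no summit) in 3 WT and 3 SLK-KO (KO) libraries. From the top, the blocks are the 6 best-ranked members, the 11 interferon-induced members, and the other members with POL2 in the 3 libraries of 1 genotype and 0 of the other. The top block is dark in all 6 columns, and in the interferon block WT replicates 2 and 3 are grey for 8 of the 11 genes.

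Between the genotypes, the share of CpG-poor promoters with a summit averaged 2.56% ± 1.46 over the 3 WT libraries and 4.37% ± 0.388 over the 3 SLK-KO libraries (SD), a difference of 1.81 points with overlapping libraries (exact two-sided permutation p = 0.2, adjusted 0.225; 3 against 3 cannot go below 0.1). With lists of equal length the difference was 0.0255 points, from 1.26%, 1.13% and 1.34% in WT and 1.36%, 1.18% and 1.26% in SLK-KO. Relative to the CpG-rich share of the same library, the log2 ratio was -3.74, -4.25 and -4.01 in WT and -3.53, -3.67 and -3.65 in SLK-KO. The SLK-KO values were all higher, by a mean of 0.38 (exact permutation p = 0.1, adjusted 0.129), and the difference was -0.09 with lists of equal length. On neither scale did the difference pass 0.05.

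**Figure D4:**
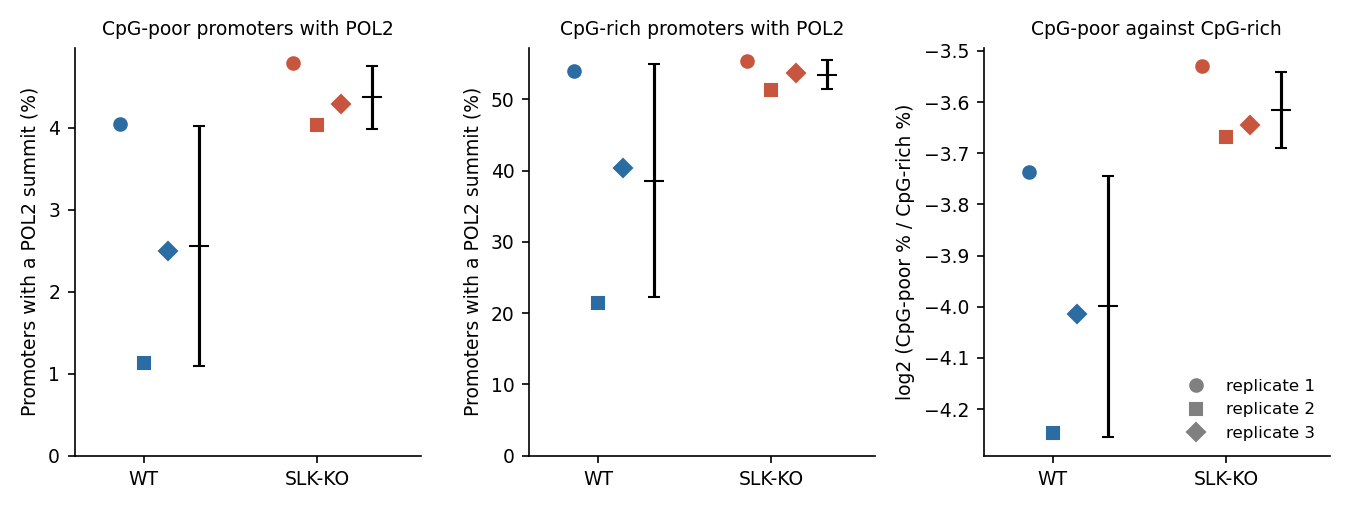
Percentage of CpG-poor (left) and CpG-rich (centre) promoters with a POL2 summit within 1 kb, and the log2 ratio of the 2 (right), in each library. Points are replicates, and the bar beside them is mean ± SD (n = 3). WT replicate 2, the shortest list, is lowest in each panel, and the ratio in the 3 SLK-KO libraries (-3.67 to -3.53) lies above that of the 3 WT libraries.

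Of the members, 15 of 261 (5.75%, Wilson 95% interval 3.51 to 9.26, counting error only) had POL2 in 3 SLK-KO and 0 WT libraries, against 3.02% of CpG-rich promoters with POL2 and 3.1% of all coding promoters with POL2. In best-ranked order the first 8 were DNAJC12, DDX20, BCL2A1, RFX7, OASL, APOL2, LAMA4 and IFI44. The others were EPCAM, ZSCAN31, TNIP1, TFF2, MIDEAS, PI3 and RARG. DNAJC12 ranked 4026, 5547 and 2173 in SLK-KO, and the nearest WT summit of any library lay 11382 bp from its 5′ end. BCL2A1 ranked 7266, 4518 and 5169 in SLK-KO, with the nearest WT summit 47172 bp away. OASL, a catalytically inactive relative of the OAS enzymes, ranked 4294, 5541 and 6136. DDX20, an RNA helicase of the SMN complex, ranked 4784, 6166 and 3012, but its summit lay 620 bp downstream in CpG-rich sequence a WT summit lay 1094 bp from the end, and INKA2 has a start 992 bp away. Of the 15, 5 had a rank of 5047 or better in any SLK-KO library, so 10 had all 3 ranks beyond the length of the WT replicate 2 list. The list of WT replicate 1, with 17126 summits, was longer than any rank of the 15 (highest 16583, RARG). Its lack of a summit within 1 kb of any of them is part of the rule that chose them. At equal length 3 members met the rule, ASTE1, C5orf46 and POU2F3. None of the 15 could be among them, since each had at least 1 SLK-KO rank beyond 5047. Without WT replicate 1 the count was 56, without SLK-KO replicate 2 it was 29 and without SLK-KO replicate 3 it was 32. Leaving out a library loosens the rule in either direction, so such a count can only stay or rise.

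In the other direction, 2 members, TMIE and RNF223, had POL2 in 3 WT and 0 SLK-KO libraries, 0.766% of the 261, beside 0.0926% of all coding promoters with POL2 (8 genes). RNF223 ranked 3440, 2826 and 4361 in WT, with summits 56 to 108 bp downstream of an end with a TATAAA match, and the nearest SLK-KO summit lay 5032 bp away. TMIE, a gene of the mechanotransduction complex of the inner ear, ranked 1712, 2178 and 2280 in WT. Its summit lay at -947 bp, upstream and in CpG-rich sequence, ALS2CL has a start 824 bp from the TMIE end, and an SLK-KO summit lay 1303 bp from the TMIE end. All WT ranks of both genes lay within 5047, so cutting the lists to that length could not take either out of this count. At equal length CD68 also met the rule, although it had POL2 in 3 WT and 3 SLK-KO full lists. Without WT replicate 2 the count of 2 was 7, and without SLK-KO replicate 2 it was 4.

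MYC summits were rare at the members. A MYC summit lay within 1 kb in at least 1 of 6 MYC libraries at 18 of 261 (6.90%, Wilson 95% interval 4.41 to 10.6, counting error only), against 1491 of 8375 CpG-rich promoters with POL2 (17.8%). In at least 2 libraries there were 6 (2.30%), against 768 (9.17%), beside 8.96% of all coding promoters with POL2. By library, 2, 0 and 0 members had MYC in WT and 7, 11 and 6 in SLK-KO. As shares these were 0.766%, 0% and 0% in WT and 2.68%, 4.21% and 2.30% in SLK-KO, against 3.32%, 1.85% and 2.46% in WT and 10.2%, 11.5% and 8.64% in SLK-KO for CpG-rich promoters. With 0 of 261 found, 3 counts of the total, or 1.15%, is taken as the largest share allowed (counting error only). The CpG-poor share was lower in 6 of 6 libraries, with a mean difference of -4.66 points (exact sign-flip permutation p = 0.031, adjusted 0.0703). The share of members with MYC averaged 0.255% ± 0.442 over the 3 WT libraries and 3.07% ± 1.01 over the 3 SLK-KO libraries (SD). That difference of 2.81 points had no overlap between genotypes (exact permutation p = 0.1, adjusted 0.129), and it was 0 with lists of equal length, which cut the MYC lists to 201 summits and the POL2 lists to 5047 and left 87 members. Among the 261, the best MYC rank in any library was 215, at BCL9, so none lay within the best 201.

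The 6 members with MYC in at least 2 libraries were IL17RC, ENSG00000288550, BCL9, TFF2, AHNAK and TM4SF1. IL17RC, a subunit of the interleukin-17 receptor, and ENSG00000288550 start 42 bp apart and share the same summits, at MYC ranks 553, 575 and 718 in SLK-KO and none in WT. Their POL2 summits were in WT replicates 1 and 3 and in 0 SLK-KO libraries, and the MYC summits lay at -629 to -590 bp, upstream of IL17RC. BCL9 had MYC ranks 993 and 215 in SLK-KO replicates 1 and 2. TFF2, a secreted trefoil peptide of mucosa, had MYC ranks 608 and 622 in SLK-KO replicates 1 and 3 and POL2 in SLK-KO libraries only. AHNAK, a very large scaffold protein, had a MYC summit in WT replicate 1 (rank 319) and SLK-KO replicate 3 (rank 440). TM4SF1, the best-ranked member for POL2, had MYC ranks of 622 and 936 in SLK-KO replicates 1 and 3, at percentiles of 51.1 and 94.7.

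CACGTG within 100 bp of the MYC summit, which equals its reverse complement, stood at 1 of 7, 1 of 11 and 1 of 6 members with MYC in SLK-KO replicates 1 to 3, and at 0 of 2 in WT replicate 1. At CpG-rich promoters with POL2 and MYC it stood at 41.7% to 45.2% in WT and 29.1% to 30.2% in SLK-KO. The members with the match were TFF2, in 2 libraries, and PRIM2, a subunit of DNA primase. Of the 18 members with MYC, 16 had it in SLK-KO libraries only. The MYC lists held 201 to 365 summits in WT and 988 to 1420 in SLK-KO. CpG-rich promoters with POL2 and MYC numbered 155 to 278 per WT library and 724 to 963 per SLK-KO library. How many of these had MYC in SLK-KO libraries only was not counted. Over all members, 114 of the 186 with a CpG-poor summit had no CpG-rich start, of their own or of another gene within 1 kb. The same held for 7 of the 75 with a CpG-rich summit. Of the 18, 13 had such a start. ZNF23, MUTYH and ARPP19, for example, had their MYC summits 955, 549 and 838 bp downstream, and the ratio at their POL2 summits was 0.644, 0.837 and 0.921.

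A start of another gene lay within 1 kb of 64 of 261 members (24.5%) and of 54.2% of CpG-rich promoters with POL2. The share over all CpG-poor promoters was 13.2%. Another start of the same gene was CpG-rich at 137 of 261 (52.5%), against 33.6% of all CpG-poor promoters. At 67 members a better-ranked POL2 summit lay at another annotated start of the same gene, whether CpG-rich or not. Taking each CpG-poor gene at any of its annotated starts raised the count with POL2 from 261 to 930. The median gene length was 17794 bp for members, 16145 bp for all CpG-poor genes and 33607 bp for CpG-rich genes with POL2. Of all CpG-poor genes, 35.04% had no POL2 summit of any library within 100 kb of the 5′ end, against 15.3% of CpG-rich genes.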

How the data were processed

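ChIP-seq of MYC and POL2 was analysed from 12 libraries of PC-3 cells; 6 IgG and 2 Input libraries were not analysed here. The authors' reads (paired-end, 50 bp) went through nf-core/chipseq 2.1.0 on GRCh38.p14, per the labels, and the submitters' processing notes name BWA 0.7.18-r1243, Picard 3.2.0 and MACS3 3.0.1. The deposited score of each summit was taken to be −log10 of its q-value within the library, since every list begins just above 1.30103, which is −log10 of 0.05. Scores served only to rank summits. The caller's control and options are not given in the sources used here. The labels call the replicates biological.

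Gene ends came from GENCODE 44 and sequence from GRCh38. No summit lay past a sequence end, and 0.326% of POL2 summits lay off chromosomes 1 to 22 and X. A promoter had a summit if 1 lay within 1 kb; the nearest gave the distance and the best-ranked the rank and the CpG ratio at the summit (medians over libraries; the 2 differ in some library for 21 members). A library without a summit counted as 100 in a median percentile. Classes were compared within libraries by exact sign-flip permutation, genotypes by exact permutation of 3 against 3, with Benjamini-Hochberg adjustment over 9 tests. Intervals are Wilson's at 95%. Members, gene lists and tests were chosen with earlier results of these data known. Genes were named by rule: the 12 best ranked, up to 8 per genotype found in 3 libraries against 0, up to 10 with MYC in at least 2 libraries, 3 on each side of the ratio of 0.35, and up to 3 per family; others are given to complete a count. Scripts, in Python 3.11.15 with numpy 2.4.6, pandas 2.3.3 and scipy 1.17.1, were tested on simulated data. Alternatives changed the ratio, windows, list length, score minimum, start sites and libraries. Of the members, 11 have an ID and no symbol, and 10 share a best summit with another member. Results for some genes that the rule names are not reported here.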

Additional observations from a re-analysis of the deposited data

How the results depend on the processing

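Of 159 alternative values of the 9 tested results, 148 kept their direction and 11 turned direction, 1 of them to 0. No test could pass 0.05 after adjustment with so few libraries, so the threshold tells nothing about stability. With lists of equal length, the log2 ratio between classes (SLK-KO minus WT) was -0.085, the rank difference between genotypes -5.75 and the MYC difference between genotypes 0. The rank difference was also -0.34 with a ratio below 0.45, -2.32 with a CpG window of 250 bp, -3.78 at any annotated start and -0.99 without SLK-KO replicate 2 (-0.99 to 2.42 over single libraries left out). The distance difference was -12.2 bp for summits within 250 bp, -1.33 bp at any start and -4.58 bp without CpG-poor genes that have a CpG-rich start of their own, an alternative added after seeing the data. The downstream difference was -2.09 points without genes near another gene's start. The 261 members became 118 with a ratio below 0.25, 414 below 0.45, 127 within 250 bp, 87 at equal length, 930 at any start and 124 without the genes with a CpG-rich start. The 15 found in SLK-KO only became 7, 30, 3 at equal length, 41 at any start and 7 without those genes, and 15 to 56 with 1 library left out. Counts of genes found in a single genotype cannot fall when 1 library is left out. The 2 found in WT only became 0 below 0.25, 1 under each of 4 alternatives (a CpG window of 250 bp, summits within 250 bp, no shared starts, no genes with a CpG-rich start), and 2 to 7 with 1 library left out. Elsewhere the cause was not tested. With the replicate number as a block, the genotype differences (1.81 points, 0.38, 1.08 and 2.81 points) could not change, since the mean of paired differences is the same. These block values are among the 148 that kept their direction. Exact sign-flip permutation over the pairs gave p of 0.25, 0.25, 1 and 0.25, where 0.25 is the smallest possible. Deviations of WT and SLK-KO libraries with the same number were hardly correlated (0.046, -0.006 and 0.023 over 9476 genes). Those with different numbers gave -0.073 to 0.050. The measure showed no pairing by number, but it cannot tell whether libraries with the same number were prepared together. In 36 stretches with at least 10 CpG-rich 5′ ends and no POL2 summit, 690 CpG-rich and 285 CpG-poor genes lay. Without them, an alternative added later, the class difference in share was -44.5 points and the members stayed at 261. The stretches were chosen for their lack of summits, so leaving them out removes few promoters with POL2 and raises both shares. The unchanged 261 therefore says nothing about stability. Unknown depth and unequal list length limit every comparison between genotypes.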
